A study of Homo sapiens with 42 samples.

Results

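Messenger RNA of Hep3B, a human hepatoma cell line, was compared after 1 h in CM, a medium with added pro-inflammatory cytokines per the labels, and after 1 h in the control medium NCM. The comparison holds 6 of the 42 arrays of a time course: 3 arrays labelled CM at 1 h and 3 labelled NCM at 1 h, chosen by those labels and joined into 3 pairs by their experiment numbers S1, S2 and S3. Per the labels, each pair was set up from a single batch of trypsinized cells, the whole was run in 3 independent experiments, and CM and NCM are not spelled out further. Both media were also sampled at T0, 15 min, 30 min, 3 h, 6 h and 16 h, with 3 arrays per medium and time. No genotype, transgene or drug is named, and all cultures share the cell line, so every statement is about Hep3B alone.

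Pro-inflammatory cytokines such as IL1 and TNF act on liver cells within minutes. Their receptors lead through adaptor proteins and the IkappaB kinase complex to the destruction of IkappaB, which frees NF-kappaB dimers to enter the nucleus and start transcription of chemokines, of survival genes and of the gene of IkappaB alpha itself, which ends the signal. IL6 acts through gp130 and STAT3, and this first wave, together with C/EBP factors, precedes the slower acute phase response, in which hepatocytes change their output of plasma proteins.

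Each array carried 13824 probes, of which 7336 named 1 gene, 576 named several genes and 5912 named none, so 5631 genes could be followed. Each gene was read from the probe that was brightest on average over the 42 arrays, and its other probes are given where they differ. Levels are log2 of the quantile normalized intensity, on which 0 stands for an intensity of 1, close to the mean of every array before that step (1.00 on each 1 h array). A level is compared between arrays for 1 probe and never between probes. Every difference is CM minus NCM within pairs on the log2 scale, with its SE from the linear model fitted in limma. Precision is limited by the 3 arrays per medium, and in a culture read as a whole, fewer cells with a transcript and less of it per cell cannot be told apart.

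Markers of the labelled cell type were read, but being above the floor does not show which cells were present. Only 1.01% of probes were at the floor on each 1 h array, and measured markers of other cells were above it too. Sums over a list are set side by side only between media. Of 18 liver and hepatoma markers 16 were measured and none was at the floor on a 1 h array, with a summed linear level of 31.0 to 39.2 on the CM arrays and 34.7 to 40.6 on the NCM arrays. AFP, the fetal plasma protein that hepatomas often make, was at 2.45, 2.40 and 2.02 in CM and at 2.06, 2.39 and 1.98 in NCM. Markers of other cells were few on the array, with 5 of 14 for monocytes and macrophages, 3 of 14 for lymphocytes, 7 of 12 for fibroblasts and stellate cells and 6 of 10 for endothelial cells. Their summed levels overlapped between the media for each of these 4 lists, for example 2.13 to 2.99 in CM against 2.52 to 3.41 in NCM for monocytes and macrophages, and none of the measured markers was at the floor. Of the 5 monocyte and macrophage markers 2 were lower in 3 of 3 pairs, MARCO, a scavenger receptor, with -0.53 (SE 0.23) and no overlap, and CSF1R with -0.29. Another 2 had a difference above 0, of 0.23 at most. Over all genes 12.8% were lower in 3 of 3 pairs, and 2.65% were lower without overlap of the media. The part of other cells in the results was not tested.

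The S1 pair stood apart from the other pairs. The log2 levels of its CM and NCM arrays correlated over all probes with Pearson's r = 0.885, against 0.957 in S2 and 0.951 in S3, and the NCM array of S1 correlated at only 0.695 to 0.723 with the arrays of the other experiments. Differences within the pair were wider too, with an SD of 0.625 over probes in S1, 0.381 in S2 and 0.407 in S3. A difference above 1 in size occurred for 10.8% of probes in S1, 1.90% in S2 and 2.43% in S3. The 3 sets of differences shared little over all 13824 probes, with r = -0.03 between S1 and S2, 0.09 between S1 and S3 and 0.09 between S2 and S3, where probes are not independent replicates. Values without S1 are therefore given beside the NF-kappaB target genes and the ribosomal proteins, and beside some of the single genes.

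No probe passed the adjusted threshold of 0.05 in limma with Benjamini-Hochberg adjustment, and the smallest adjusted p was 0.568. At an unadjusted p under 0.05 there were 605 probes, 4.38% of all, with 317 higher in CM (2.29%) and 288 lower (2.08%), a split of 52.4% higher that became 68.8% of 288 probes when arrays were centred on their medians instead. Over genes, 4.44% had an unadjusted p under 0.05, 14.7% were higher in CM in 3 of 3 pairs and 12.8% lower in 3 of 3 pairs, and the arrays of the media did not overlap for 2.63% of genes in the higher and 2.65% in the lower direction. These shares are the background for the counts below. Since no gene passed, single genes are given as values, and no count of a gene list was tested.

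The genes with the smallest unadjusted p among those higher in 3 of 3 pairs were, in order, ACTG1, NFKBIA, CXCL2, CEBPD, DHX57, IGFBP1, VTI1B, SLC38A6, EIF6 and MYC. Among those lower in 3 of 3 pairs they were EIF3E, SSR3, PCCB, CGGBP1, PHB2, ASAP1, TOP1, SLC39A11, RBM28 and RMI2. NFKBIA, CXCL2, CEBPD and MYC are genes known to answer inflammatory cytokines early.

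NF-kappaB target genes lay higher in CM as a list, and only the 3 measured NF-kappaB subunits and inhibitors, all 3 of which are on both lists, had a higher median (0.68). The list of target genes, like the others, was chosen with earlier results of these data known. Of 30 genes on the list 20 were measured, and their median difference was 0.37, against -0.0041 over all 5631 genes. In 3 of 3 pairs 12 of the 20 were higher in CM and 2 were lower, against background shares of 14.7% and 12.8%. At an unadjusted p under 0.05 there were 6 of 20 in the higher direction and 0 in the lower, where the background is 2.34% and 2.1% of genes. The arrays of the media did not overlap for 5 of 20 genes in the higher direction and 2 of 20 in the lower. The background for these counts is 2.63% and 2.65% of genes.

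The promoters of 4 of these genes are shown as examples that were picked by name. They hold a word of the kappaB type close to the gene start and belong to inhibitor, subunit and chemokine genes. All 4 genes were higher in CM in 3 of 3 pairs. CCL20 and TNFAIP3, also higher in 3 of 3 pairs, hold matches of other words and are not printed. The stretches are the 150 bases before the gene start in RefSeq (GRCh38.p14), given 5′ to 3′ on the strand of the gene, with the match in capitals. They lie at chr14:35404750-35404899 on the minus strand for NFKBIA, chr4:102501209-102501358 on the plus strand for NFKB1, chr4:74099196-74099345 on the minus strand for CXCL2 and chr4:74038690-74038839 on the minus strand for CXCL3.
NFKBIA: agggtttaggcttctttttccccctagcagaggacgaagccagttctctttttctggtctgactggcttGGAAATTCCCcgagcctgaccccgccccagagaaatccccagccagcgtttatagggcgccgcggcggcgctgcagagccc
NFKB1: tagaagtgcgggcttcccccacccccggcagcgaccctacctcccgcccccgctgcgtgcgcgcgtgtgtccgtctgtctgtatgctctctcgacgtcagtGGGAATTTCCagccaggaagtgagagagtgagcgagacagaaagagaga
CXCL2: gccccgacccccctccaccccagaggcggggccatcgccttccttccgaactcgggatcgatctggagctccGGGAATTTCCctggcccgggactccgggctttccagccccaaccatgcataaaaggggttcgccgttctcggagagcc
CXCL3: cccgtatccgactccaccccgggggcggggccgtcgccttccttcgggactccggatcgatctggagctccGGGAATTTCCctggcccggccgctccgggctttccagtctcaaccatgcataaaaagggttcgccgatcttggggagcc
The motif searched was GGG, then any 2 bases (NN), then TTTCC, on both strands, in windows from 250 bases before to 50 bases after the gene start, and overlaps with the other motifs searched were allowed. Counted from the gene start, the match began at -81 in NFKBIA, -49 in NFKB1, -78 in CXCL2 and -79 in CXCL3. NFKB1, CXCL2 and CXCL3 hold the word GGGAATTTCC on the strand shown. NFKBIA holds the same word on the opposite strand, so that it reads GGAAATTCCC on the strand shown.

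A match occurred in 523 of 27305 RefSeq promoters, 1.92%, and in 119 of the 4694 promoters found for measured genes, 2.54%. Of the 20 measured NF-kappaB target genes 18 had a promoter in the table, and 7 of those 18 held a match, 38.9%. Besides the 4 printed, these were CCL20, IL6 and TNFAIP3, the last with 2 matches. The list holds genes known as NF-kappaB targets, so its share of matches is no result about the 1 h values. A match describes letters and shows no binding, and IL6, with its match, was lower in CM. The words searched for STAT, TTCNNNGAA, and for AP-1, TGANTCA, occurred in 7.88% and 7.76% of all promoters and in 6.35% and 4.52% of those of measured genes, and each was found in 1 of the 18 promoters of the list, 5.56%. CXCL2 and CXCL3 are neighbouring genes of 1 chemokine cluster, and 132 of 153 aligned columns of the printed stretches, 86.3%, were identical, against 52.3% to 56.3% for the other pairings. The probe sequences were not analysed here, so signal shared between CXCL2 and CXCL3 cannot be told apart.

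NFKBIA encodes IkappaB alpha, the inhibitor that holds NF-kappaB in the cytoplasm and that NF-kappaB itself induces. Its level was 0.57, -0.04 and -0.55 in CM of S1, S2 and S3 and -1.02, -1.54 and -1.14 in NCM. All CM arrays were above all NCM arrays, and the narrowest gap within a pair was in S3. The difference was 1.23 (SE 0.27, 95% interval 0.67 to 1.78), a level 2.34 times that in NCM, with an unadjusted p of 0.000164 and an adjusted p of 0.568 in limma. Leaving out 1 pair at a time gave 1.04 to 1.54.

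NFKB1, the gene of the p105 precursor and p50 subunit, was at -0.58, 0.31 and -0.47 in CM and at -1.85, -0.43 and -0.51 in NCM. The CM arrays of S1 and S3 lay below an NCM array of another experiment, so the media overlapped, and the S3 pair hardly differed. The difference was 0.68 (SE 0.25, adjusted p 0.977 in limma), but it was 0.39 without S1, and the other NFKB1 probes had -0.18 and 0.17. BCL3, an IkappaB family member that works in the nucleus, had 0.06 and completed the 3 measured of 10 subunits and inhibitors.

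CXCL2 and CXCL3 encode chemokines that attract neutrophils. CXCL2 was at 0.17, 0.09 and 0.72 in CM and at -0.72, -1.08 and -0.15 in NCM. The media did not overlap, and the 3 pairs were alike, with differences of 0.89, 1.17 and 0.86. The mean difference was 0.97 (SE 0.22, 95% interval 0.52 to 1.43, adjusted p 0.590 in limma), and 0.88 to 1.03 with 1 pair left out.

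CXCL3 was at -0.83, -1.0 and -0.74 in CM and at -1.98, -1.26 and -1.53 in NCM. No CM array was as low as any NCM array, and the smallest gap, 0.26, was in S2. The difference was 0.74 (SE 0.29, adjusted p 0.977 in limma). CCL20, a chemokine for dendritic cells and lymphocytes, was at 0.87, 0.79 and 0.59 in CM and at 0.38, 0.09 and 0.55 in NCM. Its arrays did not overlap either, by a margin in S3 far below the SE, and its difference was 0.41 (SE 0.36). CCL2, the monocyte chemokine, had 0.40 (SE 0.32) and was higher in 3 of 3 pairs.

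CXCL8, the gene of interleukin 8, did not differ in the same way in the 3 experiments. It was at -1.05, 0.68 and -0.35 in CM and at -0.94, -0.69 and -0.37 in NCM. The S2 pair alone had a large difference, 1.37, beside -0.11 in S1 and 0.02 in S3, and the mean was 0.43 (SE 0.27), or -0.04 without S2.

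Feedback and survival genes of the list other than NFKBIA had 0.61 or less. GADD45B, a stress protein that restrains JNK signalling, was at 0.02, 0.08 and 0.30 in CM and at -0.78, -0.37 and -0.28 in NCM, with no overlap. Its difference was 0.61 (SE 0.28) and its second probe had 0.40, higher in 3 of 3 pairs. TNFAIP3, the gene of A20, which removes ubiquitin chains and dampens NF-kappaB, was at -1.39, -0.35 and -1.14 in CM and at -1.42, -1.50 and -1.24 in NCM. Only the S2 pair of TNFAIP3 differed by more than its SE of 0.30, and the mean difference was 0.43.

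CD83, a surface protein of activated immune cells, was at -1.69, -2.02 and -1.40 in CM and at -1.76, -2.29 and -2.36 in NCM. Its difference was 0.43 (SE 0.19), and it was 0.17 without S3, the pair that held the widest gap. IER3, an early survival gene, had 0.33 (SE 0.28), VCAM1 had 0.17 and BIRC2 had 0.12, each higher in 3 of 3 pairs. TNFAIP2, CFLAR and BCL3 were mixed between pairs with 0.17, 0.13 and 0.06, as were SOD2 and TRAF1 with -0.02 and -0.03.

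IL6 and BCL2A1 were the list members lower in CM in 3 of 3 pairs. IL6, the cytokine that drives STAT3, was at -1.47, -1.83 and -1.66 in CM and at -1.37, -1.40 and -1.06 in NCM, with a difference of -0.38 (SE 0.24). BCL2A1, a survival protein of the BCL2 family, was at -0.58, -0.52 and -0.50 in CM and at -0.33, -0.30 and -0.16 in NCM, with -0.27 (SE 0.26). Their arrays did not overlap, yet neither had an unadjusted p under 0.05.

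Scaling and pairs moved the count. With values as deposited 9 of 20 members were higher in 3 of 3 pairs (all genes 11.5%), and with median centring 10 of 20 (all genes 18%). Without S1, 15 of 20 were higher in both remaining pairs (all genes 28.5%). Without S2 the count was 13 of 20 (all genes 26.8%) and without S3 it was 12 of 20 (all genes 24.5%). The median difference of the list was 0.41, 0.23 and 0.18 without S1, S2 and S3.

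**Figure D1:**
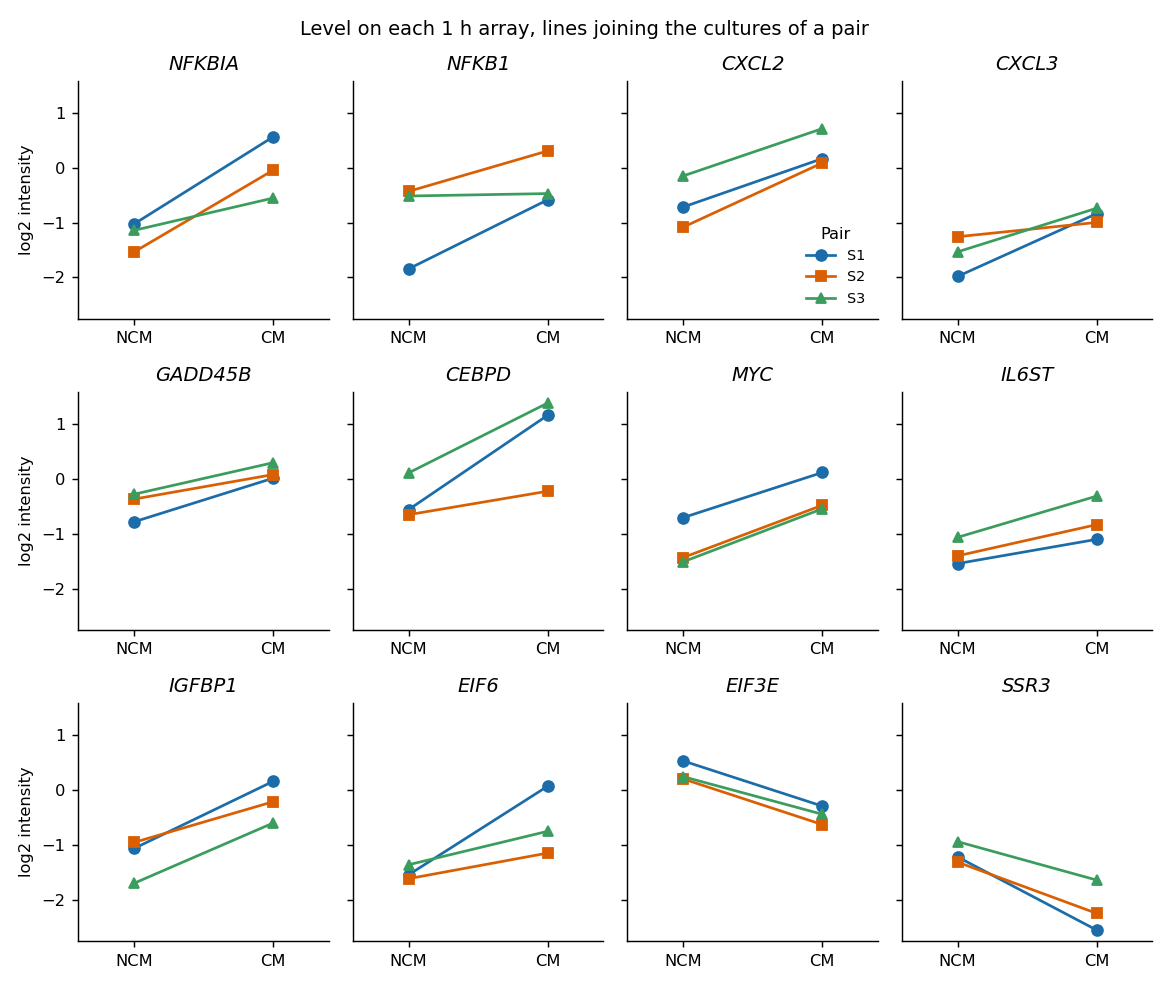
Each panel plots 1 gene on the 1 h arrays, with log2 intensity on the vertical axis and the medium on the horizontal axis. Points are single arrays (circles S1, squares S2, triangles S3) and lines join the cultures of a pair. Lines run upward in 3 of 3 pairs for the first 10 genes, with the flattest line for NFKB1 in S3, and downward in 3 of 3 pairs for EIF3E and SSR3.

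Upstream of NF-kappaB, 13 of 31 genes of IL1 and TNF receptor signalling were measured, with a median of 0.01. In 3 of 3 pairs 3 were higher and 1 lower, beside 14.7% and 12.8% of all genes. The higher members were TRAF6, MAPK9 and IL1R1. TRAF6, the ubiquitin ligase that relays IL1 receptor signals, was at -0.64, -0.54 and -0.21 in CM and at -1.61, -1.13 and -0.79 in NCM, without overlap. Its difference was 0.71 (SE 0.30, adjusted p 0.977 in limma), and it was 0.83 at 30 min. IL1R1, a receptor of IL1, had 0.14 (SE 0.24), and IKBKG, the regulatory subunit of the IkappaB kinase, had -0.40 (SE 0.24) and was lower in 3 of 3 pairs.

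Chemokines and cytokines as a whole, 24 of 32 measured, had a median of 0.00. Of these, 5 were higher in 3 of 3 pairs (all genes 14.7%), namely CXCL2, CXCL3, CCL20, CCL2 and LIF. Lower in 3 of 3 pairs were IL1B and IL6 (all genes 12.8%). LIF, a cytokine of the IL6 family, had 0.29 (SE 0.29). IL32, a pro-inflammatory cytokine, was at 0.33, -0.94 and -1.18 in CM and at 1.15, -1.13 and -0.95 in NCM at 1 h, with a difference of -0.29 (SE 0.23), which was -0.02 without S1 and -0.53 without S2, and had 0.90 at 3 h.

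For the IL6 and STAT3 pathway 24 of 32 genes were measured, with a median of 0.13, 4 higher and 1 lower in 3 of 3 pairs, and 3 at an unadjusted p under 0.05. CEBPD, MYC, IL6ST and MCL1 were the members higher in 3 of 3 pairs. Over all genes 14.7% were higher and 12.8% lower in 3 of 3 pairs, and 4.44% had an unadjusted p under 0.05 in limma.

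CEBPD encodes C/EBP delta, a factor of the acute phase response. Its brightest probe was at 1.17, -0.22 and 1.39 in CM and at -0.56, -0.65 and 0.11 in NCM. The S2 CM array was below the S3 NCM array, so the media overlapped. The difference was 1.14 (SE 0.30, 95% interval 0.52 to 1.76, adjusted p 0.977 in limma), and the other CEBPD probes had 0.43, higher in 3 of 3 pairs, and 0.14. The probe listed next to the brightest one names no gene and had -2.47, -0.12 and -1.40 in the pairs where CEBPD had 1.73, 0.43 and 1.28. Its S1 value is no exact difference, because the CM array was at the floor of -3.62, and a link between these values was not tested. CEBPB, the related factor C/EBP beta, was at -0.52, -0.02 and -0.06 in CM and at 0.25, -0.70 and -0.17 in NCM, with a difference of 0.01 (SE 0.24), which was 0.39 without S1 and -0.33 without S2. Its other probes were higher in 3 of 3 pairs without overlap, with 0.70 (SE 0.55) and 0.32 (SE 0.32), so its 3 probes differed in size.

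MYC, a growth-promoting transcription factor, had nearly even differences in the 3 pairs. It was at 0.12, -0.48 and -0.54 in CM and at -0.71, -1.44 and -1.51 in NCM. No arrays overlapped, and the pairs had 0.82, 0.96 and 0.97, an SD of 0.080. The mean difference was 0.92 (SE 0.26, adjusted p 0.977 in limma), a level 1.89 times that in NCM. The SE rests on the spread of this probe over all 21 pairs and not on these 3 alone.

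IL6ST, the gene of the shared receptor gp130, was higher in 3 of 3 pairs on both of its probes. The brighter probe was at -1.10, -0.83 and -0.31 in CM and at -1.54, -1.40 and -1.07 in NCM, a difference of 0.59 (SE 0.22). The second probe was at -0.54, -0.34 and -0.77 in CM and at -0.96, -0.92 and -1.33 in NCM, with 0.52 (SE 0.29). Arrays of the media overlapped on the first probe and did not overlap on the second.

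STAT3 itself was at 2.73, 3.27 and 2.46 in CM and at 2.84, 2.99 and 2.30 in NCM, a difference of 0.11 (SE 0.20). SOCS3, the STAT3-induced inhibitor of gp130 signalling, was at 0.27, 0.09 and -1.27 in CM and at 0.74, -1.08 and -1.04 in NCM. The SOCS3 difference was 0.16 (SE 0.41), and it was -0.35 without S2. JUNB, an AP-1 subunit that STAT3 induces, had 2.70 in S1, 1.07 in S2 and -1.65 in S3. Its mean of 0.71 (SE 0.55) became -0.29 without S1.

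Immediate early genes are transcribed without prior protein synthesis, and many encode transcription factors. Of 32 on the list 24 were measured, with a median of 0.10. In 3 of 3 pairs 5 were higher and 4 lower, beside 14.7% and 12.8% of all genes. Besides CEBPD and MYC, the higher ones were JUN with 0.41 (SE 0.31), KLF6 with 0.37 (SE 0.33) and HES1 with 0.21. FOS, which partners JUN in AP-1, was at -1.24, -1.25 and -1.33 in CM and at -1.18, -1.73 and -1.87 in NCM, and its difference of 0.32 (SE 0.27) was reversed in S1 and 0.51 without it. EGR1, a zinc finger factor induced by growth signals, had -0.15 (SE 0.23), and ATF4, ID2, FOSL2 and EGR3 were lower in 3 of 3 pairs with -0.18 to -0.34.

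Early and feedback proteins other than transcription factors, 16 of 34 measured, had a median of 0.17. Of these, 5 were higher and 2 lower in 3 of 3 pairs (all genes 14.7% and 12.8%). The higher members were GADD45B, DUSP6, TNFAIP3, IER3 and MCL1. DUSP6, a phosphatase of the ERK kinases, was at 0.41, 0.09 and -0.39 in CM and at -0.09, -0.64 and -0.66 in NCM, with 0.50 (SE 0.28). DUSP1, a phosphatase of p38 and JNK, had 0.27 (SE 0.21) and was lower in S3, with 0.12 without S1 and 0.47 without S3. GADD45B, TNFAIP3 and IER3 are also counted among the NF-kappaB targets.

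IGFBP1, the insulin-like growth factor binding protein made by liver, belonged to none of the lists. It was at 0.16, -0.21 and -0.60 in CM and at -1.07, -0.95 and -1.70 in NCM. No arrays overlapped, and the difference was 1.02 (SE 0.29, adjusted p 0.977 in limma), a level 2.03 times that in NCM. The second IGFBP1 probe went the other way, with -0.36 (SE 0.27), and the mean of both probes was 0.33.

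Acute phase proteins had medians close to 0 at 1 h. Of 32 that rise in the acute phase 21 were measured, with a median of -0.01, 4 higher and 3 lower in 3 of 3 pairs. Of 22 that fall 19 were measured, with a median of -0.06, 2 higher and 4 lower in 3 of 3 pairs. The background is 14.7% higher and 12.8% lower.

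HP, haptoglobin, was at -1.28, 0.78 and -0.74 in CM and at -0.98, 0.55 and -0.77 in NCM, a difference of -0.02 (SE 0.24, 95% interval -0.51 to 0.48). ORM1, orosomucoid, had -0.03 (95% interval -0.51 to 0.45). CRP, C-reactive protein, had 0.16 (95% interval -0.25 to 0.58), and CFB, complement factor B, had -0.11 (95% interval -0.56 to 0.35). These intervals include 0 and reach 0.58 at most, and absence of a change was not tested. They set no detection limit, because with 3 pairs a larger difference, 1.23 for NFKBIA, also missed the adjusted threshold. Within its small mean CRP was higher in 3 of 3 pairs and CFB lower in 3 of 3 pairs. SERPINA3, alpha-1-antichymotrypsin, was higher in 3 of 3 pairs with 0.38 (SE 0.19), of which the S1 pair, 0.64 against -0.14, held most.

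C4BPA, a complement regulator, had 0.89 (SE 0.34) on its brightest probe, but this was 0.20 without S1, and its other probes had 0.58 and -0.00. ITIH4 and ITIH2, heavy chains of the inter-alpha-trypsin inhibitor, had -0.48 (SE 0.20) and 0.53 (SE 0.25), each opposite to the direction in its list's name. Of the negative acute phase proteins, TTR, the thyroxine carrier transthyretin, had -0.38 (SE 0.22), AHSG, fetuin-A, had -0.30 (SE 0.28) and ALB, albumin, had 0.01 (SE 0.18).

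**Figure D2:**
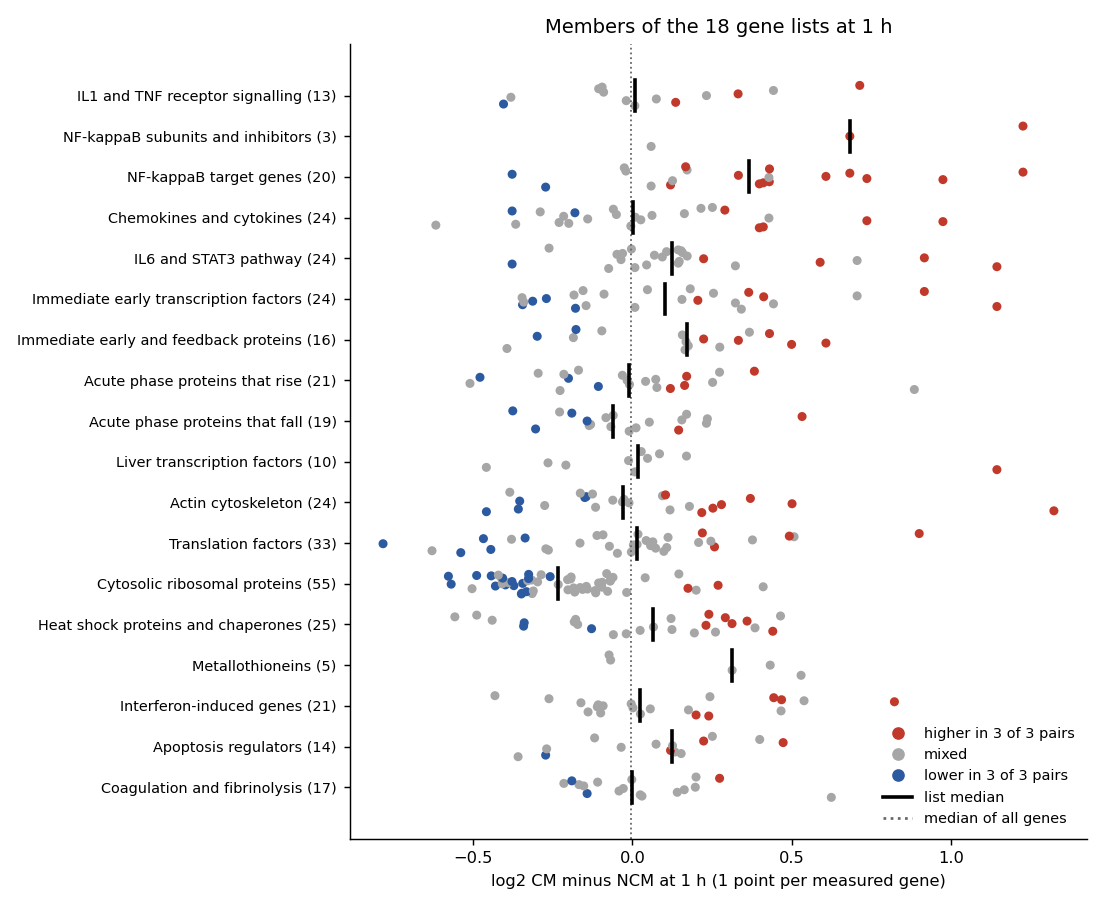
Each point is 1 measured gene of a list at its log2 difference, CM minus NCM at 1 h, with the number of measured genes in brackets, and black bars are list medians. Red points are higher in CM in 3 of 3 pairs, blue points lower in 3 of 3 pairs and grey points mixed. The NF-kappaB target genes have 12 red and 2 blue points of 20, and the ribosomal proteins 2 red and 16 blue points of 55. The shares over all genes, not plotted, are 14.7% higher and 12.8% lower.

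Cytosolic ribosomal proteins, the structural proteins of the ribosome, had the lowest median of the 18 lists that are not cell type markers. Of 81 on the list 55 were measured, with a median of -0.23, and 49 of 55 had a difference below 0. In 3 of 3 pairs 16 of 55 were lower in CM and 2 were higher, beside background shares of 12.8% and 14.7%. At an unadjusted p under 0.05 only 1 of 55 was lower and 0 were higher, beside 2.1% and 2.34% of all genes.

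The pairs differed in this list. In S1 49 of 55 were lower in CM, in S3 50 of 55, and in S2 only 20 of 55, with medians of -0.36, -0.37 and 0.06. Without S2 the median was -0.39 and 47 of 55 were lower in both remaining pairs (all genes 24.9%), without S1 18 of 55 (all genes 25.5%) and without S3 17 of 55 (all genes 24.7%). With median centring in place of quantile normalization the median was -0.08 and 11 of 55 were lower in 3 of 3 pairs (all genes 11.9%). The list was also low before 1 h, with medians of -0.12 at T0, -0.18 at 15 min and -0.21 at 30 min. Later medians were 0.05 at 3 h, -0.11 at 6 h and 0.12 at 16 h. The count lower in 3 of 3 pairs was 5 at T0, 13 at 15 min, 16 at 30 min and at 1 h, 6 at 3 h, 9 at 6 h and 2 at 16 h, where the share of all genes was 10%, 10.2%, 13.2%, 12.8%, 12.6%, 12.6% and 12.6%.

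RPS27L, a ribosomal protein paralog known as a p53 target, was the member with the unadjusted p under 0.05. It was at 0.08, 0.10 and -0.38 in CM and at 1.00, 0.27 and 0.27 in NCM, without overlap, a difference of -0.58 (SE 0.25). RPL41, the smallest ribosomal protein, was at 1.55, 0.73 and 1.3 in CM and at 1.97, 1.46 and 1.85 in NCM, with -0.57 (SE 0.28). RPS3, of the small subunit, had -0.49 (SE 0.24), whereas RPL37, of the large subunit, was higher in 3 of 3 pairs with 0.27 (SE 0.17).

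**Figure D3:**
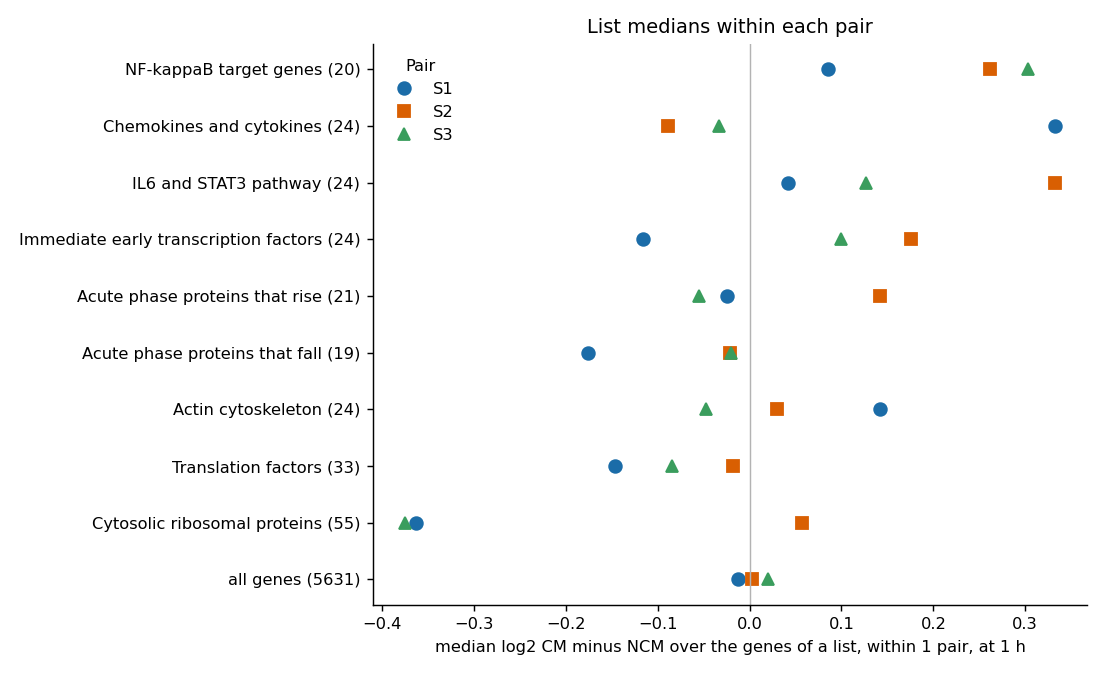
Medians over the genes of a list of the log2 difference within 1 pair at 1 h are plotted for 9 lists and for all genes, with circles for S1, squares for S2 and triangles for S3. All 3 medians of the NF-kappaB target genes are above 0, at 0.08, 0.26 and 0.30, while the ribosomal proteins lie at -0.36 and -0.37 in S1 and S3 and at 0.06 in S2.

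Translation factors, 33 of 52 measured, had a median of 0.01. Of these, 4 were higher and 5 lower in 3 of 3 pairs (all genes 14.7% and 12.8%). EIF3E, a subunit of the initiation factor eIF3, had the smallest unadjusted p of all genes lower in 3 of 3 pairs. It was at -0.29, -0.63 and -0.44 in CM and at 0.54, 0.21 and 0.25 in NCM. No arrays overlapped, and the pairs had -0.83, -0.83 and -0.69. The mean difference was -0.78 (SE 0.17, 95% interval -1.13 to -0.43, adjusted p 0.568 in limma), and -0.83 to -0.76 with 1 pair left out.

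EIF6, a factor that keeps the large ribosomal subunit from joining early, was at 0.07, -1.15 and -0.75 in CM and at -1.55, -1.62 and -1.36 in NCM. The media did not overlap, and S1 held the widest gap, 1.62. Its difference was 0.90 (SE 0.26), or 0.54 without S1. EIF4H, a helper of the eIF4A helicase, had 0.49 (SE 0.22), EEF1D, an exchange factor of elongation, had -0.54 (SE 0.20), and EIF1, which guides start codon choice, had -0.63 (SE 0.28) and was not lower in S2.

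Among cytoskeletal genes, 24 of 44 measured, the median was -0.03. Of these, 7 were higher and 5 lower in 3 of 3 pairs (all genes 14.7% and 12.8%). ACTG1, gamma actin, had the smallest unadjusted p of the genes higher in 3 of 3 pairs, on its brightest probe. That probe was at 2.92, 2.65 and 1.97 in CM and at 2.03, 0.90 and 0.64 in NCM, a difference of 1.32 (SE 0.28, adjusted p 0.568 in limma), with the S1 NCM array above the S3 CM array. The second ACTG1 probe was at 1.44, 0.68 and 0.45 in CM and at 1.84, 0.72 and 0.69 in NCM, lower in 3 of 3 pairs with -0.23 (SE 0.27). ACTB, beta actin, was likewise lower in 3 of 3 pairs with -0.46 (SE 0.22), or -0.30 without S1, so the ACTG1 value rests on 1 probe.

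Of the remaining lists, interferon-induced genes, 21 of 38 measured, had a median of 0.03 with 5 higher and 0 lower in 3 of 3 pairs. Over all genes 14.7% were higher and 12.8% lower. The split was 2 and 2 with neighbour centring, described below (all genes 13.2% and 14.2%). With values as deposited it was 3 and 2 (11.5% and 19.1%), and with median centring 5 and 2 (18.0% and 11.9%). It stayed at 5 and 0 with a 10th percentile floor and was 4 and 0 with probes averaged per gene. IRF7, a transcription factor of the interferon response, was at -0.37, -0.79 and 0.40 in CM and at -1.17, -1.18 and -0.88 in NCM, without overlap, a difference of 0.82 (SE 0.28). Heat shock proteins and chaperones, 25 of 42 measured, had a median of 0.07 with 6 higher and 3 lower, and apoptosis regulators, 14 of 40 measured, a median of 0.12 with 3 higher and 1 lower. FAS, the death receptor, had 0.47 (SE 0.27) and was higher in 3 of 3 pairs.

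Coagulation and fibrinolysis genes, 17 of 29 measured, had a median of -0.00. Of these, 1 was higher and 2 were lower in 3 of 3 pairs (all genes 14.7% and 12.8%). Liver transcription factors, 10 of 28 measured, had a median of 0.02 with CEBPD as the 1 higher in 3 of 3 pairs. Metallothioneins, the metal-binding proteins that cytokines and zinc induce, had 5 of 12 measured and a median of 0.31, but none was higher or lower in 3 of 3 pairs. A second MT1H probe and a second MT1X probe held the same values on all 1 h arrays, and the list was read from other probes of both genes. MT2A was at 0.81, 0.11 and -0.98 in CM and at 1.00, -0.23 and -0.61 in NCM, with -0.07 (SE 0.35).

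Several of the genes with lower values stand in none of the lists. SSR3, a subunit of the translocon-associated complex of the endoplasmic reticulum, was at -2.56, -2.25 and -1.64 in CM and at -1.22, -1.31 and -0.94 in NCM, without overlap. Its difference was -0.99 (SE 0.25, adjusted p 0.977 in limma). PCCB, a subunit of the mitochondrial propionyl-CoA carboxylase, was at -1.16, -1.29 and -0.21 in CM and at 0.11, -0.26 and 0.14 in NCM, with -0.89 (SE 0.24) and an overlap of the media through S3. TOP1, DNA topoisomerase I, had -0.75 (SE 0.23) and PHB2, a prohibitin of the inner mitochondrial membrane, had -1.03 (SE 0.31), but the other PHB2 probes had 0.07 and 0.03.

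The 1 h differences were set beside those at the other times, each of which has its own NCM arrays. The genes followed in this way had a small unadjusted p at 1 h in limma. Choosing them so favours a largest difference at 1 h, and a peak at 1 h was not tested apart from that choice. For NFKBIA the mean difference was -0.27 at T0, 0.24 at 15 min, 1.09 at 30 min, 1.23 at 1 h, 0.69 at 3 h, 0.11 at 6 h and 0.01 at 16 h. The 1 h value exceeded that at 30 min by 0.14 (SE 0.38). At 30 min the pairs had 1.16, 0.15 and 1.95, the last with the NCM array of S3 at -3.46 beside -1.63 and -1.29 in S1 and S2. Without S3 the mean at 30 min was 0.66 and the 1 h value exceeded it by 0.89, while without S2 the 1 h value was the lower by a difference of -0.46, a comparison added after the data were seen. NFKBIA was higher in 3 of 3 pairs at 30 min, 1 h and 3 h. CXCL2 had 0.05, -0.20, 0.53, 0.97, 0.69, 0.11 and 0.06 at the same times, and its 3 pairs were higher at 30 min, 1 h and 3 h too. CXCL3 had -0.39 at 30 min, when 0 of 3 pairs were higher, 0.74 at 1 h and 0.59 at 3 h.

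MYC had 0.18 at 30 min, 0.92 at 1 h and -0.01 at 3 h. CEBPD had 0.40, 1.14 and 0.55 at 30 min, 1 h and 3 h and was higher in 3 of 3 pairs at 1 h, 3 h and 6 h. NFKB1 and IGFBP1 had their largest means at 3 h, with 1.22 and 1.38 after 0.68 and 1.02 at 1 h. EIF3E had -0.12 at 30 min, -0.78 at 1 h and -0.22 at 3 h.

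None of these contrasts between times passed. For the 1 h difference minus that at T0, at 30 min and at 3 h, 0 of 13824 probes passed an adjusted p of 0.05 in limma, and 412, 536 and 442 had an unadjusted p under 0.05, which is 2.98%, 3.88% and 3.2%. Leading genes were taken among those with the same direction in S1, S2 and S3, matched by number across times. The numbers are not shown to share cells between times, so that agreement is not one of paired replicates. NFKBIA led the higher side of the contrast with T0 at 1.5 (SE 0.38, adjusted p 1.00 in limma). IL32 led the lower side of the contrast with 3 h at -1.19 (SE 0.33, adjusted p 1.00), from -0.29 at 1 h and 0.90 at 3 h.

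**Figure D4:**
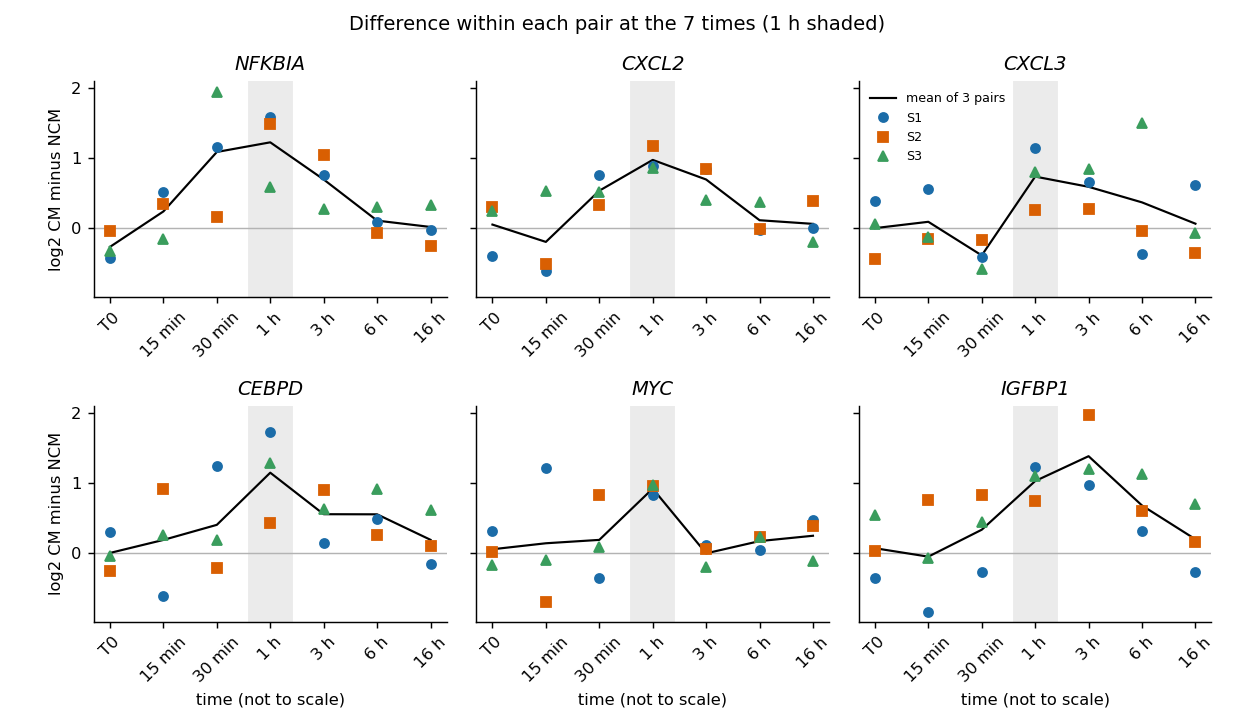
The log2 difference CM minus NCM within each pair is plotted against time for 6 genes, with circles for S1, squares for S2 and triangles for S3, the mean of 3 pairs as a line and 1 h shaded. The means of CXCL2, CXCL3, CEBPD, MYC and NFKBIA are largest at 1 h, from 0.74 to 1.23, and that of IGFBP1 at 3 h. All 6 genes had a small unadjusted p at 1 h in limma, and choosing them so favours a largest mean at 1 h. Experiment numbers are matched within a time and not shown to share cells between times.

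The count of NF-kappaB target genes higher in 3 of 3 pairs was 1 of 20 at T0, 1 at 15 min, 3 at 30 min, 12 at 1 h, 10 at 3 h, 7 at 6 h and 4 at 16 h. Over all genes the share was 9.57%, 10.8%, 8.13%, 14.7%, 13.5%, 12.8% and 14.6% at these times. The median difference of the list was 0.01, 0.09, -0.07, 0.37, 0.22, 0.13 and 0.06. The counts at 1 h and 3 h were the highest of the 7, and a difference between times was not tested for the list.

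**Figure D5:**
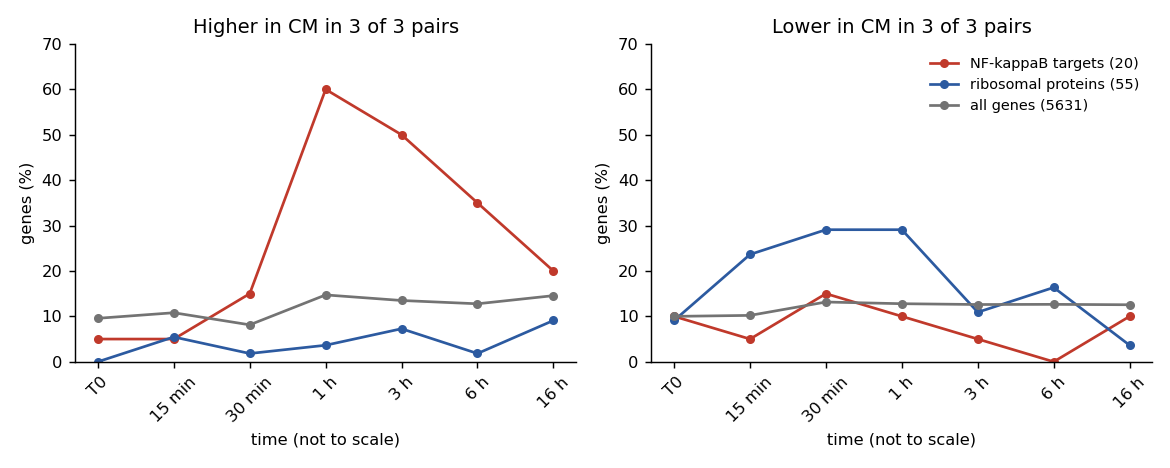
The share of genes higher (left) or lower (right) in CM in 3 of 3 pairs is plotted in percent against time for the 20 NF-kappaB target genes, the 55 ribosomal proteins and all 5631 genes. The NF-kappaB line has its highest point at 1 h, 12 of 20 genes, and the ribosomal protein line on the right is at 16 of 55 at both 30 min and 1 h.

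The level in each medium at 1 h was also compared with T0 of the same medium, with 3 arrays on each side and no pairing of experiment numbers. NFKBIA was at -1.72, -1.48 and -1.51 in CM at T0 against 0.57, -0.04 and -0.55 at 1 h, a difference of 1.56 (SE 0.39, adjusted p 0.736 in limma). In NCM its difference was 0.07 (SE 0.39). All CM arrays at 1 h lay above those at T0, but neither change passed the threshold. At T0 NFKBIA was already lower in CM than in NCM, by a mean difference of -0.27. For CXCL2 the difference from T0 was 0.72 (SE 0.30) in CM and -0.20 (SE 0.30) in NCM, and for MYC it was 1.33 (SE 0.39) in CM and 0.46 (SE 0.39) in NCM.

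In CM, 2 of 13824 probes passed, 0.0145%, and in NCM 1 passed, 0.00723%, with 336 (2.43%) and 539 (3.9%) probes at an unadjusted p under 0.05. The CXCL8 probe rose in CM from -2.56, -1.93 and -1.58 at T0 to -1.05, 0.68 and -0.35 at 1 h, by 1.78 (SE 0.33, adjusted p 0.0412 in limma). In NCM it was at -2.05, -1.47 and -2.01 at T0 and at -0.94, -0.69 and -0.37 at 1 h, a difference of 1.17 (SE 0.33, adjusted p 1.00). The levels at 1 h were above those at T0 on all arrays of both media, and the change in CM exceeded that in NCM by 0.61 (SE 0.38, unadjusted p 0.120 in limma). The call in CM was lost with values as deposited (adjusted p 0.0977), with median centring (0.0643), and without S1 (0.0779), S2 (adjusted p 1) or S3 (0.182), and the other CXCL8 probes had -0.06 and 0.67.

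STAT5B, a signal transducer of growth hormone, held the other call in CM and the one in NCM, on a single probe. Its level rose by 2.70 (SE 0.38, adjusted p 0.000672 in limma) in CM and by 2.75 (SE 0.38, adjusted p 0.000473) in NCM. On the 6 arrays of 1 h that probe was between 0.36 and 2.50, and on the 36 arrays of other times between -1.79 and -0.55. The second STAT5B probe differed by -0.02 and 0.22, so the step was seen on 1 of 2 probes and in both media. Without S1 and without S2 the STAT5B call in CM was lost, with adjusted p 0.0825 and 0.139, while that in NCM kept an adjusted p of 0.0164 or less with any replicate left out.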

How the data were processed

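The authors deposited 1 linear intensity per probe and array, with a mean near 1 on each array and up to 2.00% of values below 0 at 1 h. The sources used here do not name the array type, scanner, background step or scaling (each not given in the sources used here). All columns were used (0 left out). Linear values of the 42 arrays were quantile normalized, values under the common 1st percentile (0.0813, or -3.62 in log2 units) were raised to that value, and levels were expressed in log2. R 4.3.3 with limma 3.58.1 fitted a term for every pair plus the effect of CM at every time, using all 42 arrays (14 residual degrees of freedom, prior SD 0.309 on 6.26 prior degrees of freedom), two-sided, Benjamini-Hochberg over 13824 probes, threshold 0.05. Changes within a medium used 14 group means. Intervals are 95% and use the moderated spread. Plots used Python 3.11 with matplotlib 3.10.9.

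The labels state the pairs. As a check, the 2 arrays of a pair deviated together, with r from 0.308 to 0.754 in 21 of 21 pairs. The 3 experiments are independent per the labels.

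Names came from the array annotation (7322 of 7336 probes with 1 gene matched by Entrez ID, 0 symbols updated). Of 5631 genes, 1128 had more than 1 probe. Named are up to 10 genes per direction with 3 pairs in that direction by the smallest p, list members at an unadjusted p under 0.05, 32 of 33 further genes of interest, and up to 5 per direction for the other contrasts. Second probes and further list members were picked with their values in view. The comparison, the 23 gene lists and the motifs were chosen with earlier results of these data known. At 1 h 8 probes were exact duplicates of another probe across the 6 arrays (no tolerance), among them F12, C8A, C8B and a probe each of MT1H and MT1X. C8A shared values with other probes at T0 too and is not compared between times. The steps were tested on simulated data. Alternatives tried were deposited values without scaling, centring on medians, a fit that ignores the pairs, filters on dim probes, a 10th percentile floor, a fit of 1 h only, robust spread with an intensity trend, probe means, neighbour centring (probe numbers taken as places on the array), copied values left out and each replicate left out.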

Additional observations from a re-analysis of the deposited data

How the results depend on the processing

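For CM against NCM at 1 h, 0 probes passed under each alternative run, except that 1 passed without S2 (0 to 1 with a replicate left out). That probe names no gene and had -2.47, -0.12 and -1.40 in S1, S2 and S3, where the CM array of S1 was at the floor, so that the size of this call depends on the floor. The fit with no replicate block, which ignores the pairs, called 0 probes. It had 140 probes with an unadjusted p under 0.05, against 605. That count was 304 with values as deposited, 288 with median centring, 360 without the dimmest 50% of probes and 257 without S1, and with 1 h fitted alone 42.3% of 655 were higher. The cause was not tested, save that the filter tests fewer probes. For CM at 1 h against T0 the count of 2 became 4 with the experiment number as a replicate block, and 1 with values as deposited, with median centring and without the dimmest 50% of probes, and 0 to 1 with a replicate left out. For NCM the count of 1 became 2 with the replicate block and 2 with a floor at the 10th percentile. Experiment numbers did not pair T0 with 1 h, with correlations of deviations from -0.51 to 0.01.

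Of 316 list values run, 23 moved by more than the spread between pairs. Median centring gave 0.20 for IL1 and TNF receptor signalling, 0.077 for acute phase proteins that fall and 0.081 for translation factors. Without the dimmest 25% of probes the receptor list had 0.14, and without the dimmest 50% it had 0.18, with translation factors at -0.060. With a floor at the 10th percentile the NF-kappaB target genes had 0.22 and apoptosis regulators 0.016. With probes averaged per gene the NF-kappaB subunits and inhibitors had 0.23, and with neighbour centring apoptosis regulators had -0.0087. With a replicate left out, medians ran from 0.18 to 0.41 for NF-kappaB target genes, from -0.058 to 0.058 for translation factors and from -0.088 to 0.48 for metallothioneins. Of 92 named genes 75 kept the sign of their 1 h difference under all alternatives run. That count is partly set by the choice of genes. Where 3 of 3 pairs have the same direction, the sign cannot change when a replicate is left out. All 1 h differences of single genes missed the adjusted threshold, which with 3 pairs limits what can be detected.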
